A study of Mus musculus with 5 samples.

Results

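The MYC network is a family of basic helix-loop-helix leucine zipper transcription factors that compete for a shared partner, MAX. The 7 genes described here, Myc, Mycn, Max, Mxi1, Mxd4, Mga and Mnt, were chosen by symbol, and all 7 were found among the 11643 genes of the deposited table. They were followed across 5 RNA-seq libraries of haematopoietic stem cells (HSCs), which were isolated from C57BL/6 bone marrow by a gate that keeps c-Kit, Sca-1 and CD150 and drops lineage markers and CD48. In the 2 libraries labelled Tle1/3/4-deficient, floxed alleles of Tle1, Tle3 and Tle4, which encode co-repressors of the Groucho family, were to be removed by Vav-Cre, a recombinase expressed throughout the blood system and therefore not restricted to HSCs. The other 3 libraries came from control mice, whose titles carry the code VavC, which the labels do not explain, and whose alleles and Cre status are not spelled out. The age of the mice, and whether each library came from its own animal or from a pool, are likewise not stated, so the tests speak only to the variation among these 5 libraries, part or all of which could be technical.

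MYC and MYCN dimerise with MAX, bind the E-box motif CACGTG and activate genes of ribosome production, metabolism and cell division. MXI1, MXD4 and MNT also pair with MAX, bind the same motif and recruit the SIN3 co-repressor, while MGA joins MAX in a Polycomb complex. In mouse HSCs, Myc and Mycn are jointly needed for survival, and Myc is known for tipping the balance from self-renewal towards differentiation.

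Expression was given in FPKM (fragments scaled by transcript length and sequencing depth), which corrects for transcript length, so levels of different genes can be set side by side. Column sums ran from 599137 to 683822 FPKM, 656 to 1438 genes per library were listed at 0, and total reads are unknown. Against the label, Tle3 stood at 32.3 and 31.6 FPKM in libraries labelled deficient and at 2.48 to 5.61 FPKM in the controls. Tle4 was at 0.353 and 0.203 FPKM in libraries labelled deficient, against 5.67, 0.0129 and 5.29 FPKM in control replicates 1, 2 and 3, and Tle1 was at 2.84 and 4.37 FPKM against 0.811 to 3.33 FPKM. Gene-level values include exons outside the floxed part, so these levels do not check the deletion, and each direction below rests on the labels. Of the sort genes, Kit was at 102 FPKM in both deficient-labelled libraries and at 149 to 185 FPKM in controls, and Slamf1, the gene of CD150, was at 31.8 and 31.0 FPKM against 14.9 to 23.95 FPKM. Ly6a, which encodes Sca-1, was at 155 and 14.0 FPKM in replicates 1 and 2 labelled deficient, against 57.8 to 199 FPKM in controls, and Cd48 was at 7.19 and 23.4 FPKM against 3.22 to 13.0 FPKM. Deficient-labelled replicate 2 thus lay below every control in Ly6a and above every control in Cd48, the opposite of what the gate selects. Of 9 sort and identity markers, 2 had positive and 7 negative fold changes, where 44.3% of all tested genes were positive, and none passed.

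The gene starts of Max, Mxd4 and Mnt each carry an intact CACGTG E-box, the motif that MYC-MAX, MXD-MAX and MNT-MAX dimers recognise, and are shown because Max and Mnt are also the members whose groups did not overlap. The windows, from RefSeq on build GRCm38.p6, run 5′ to 3′ from 250 bases before to 50 bases after the annotated start, with the motif in capitals. They are taken by gene symbol, since the deposited values were made on mm9.
Max, chr12:76962199-76962498, minus strand: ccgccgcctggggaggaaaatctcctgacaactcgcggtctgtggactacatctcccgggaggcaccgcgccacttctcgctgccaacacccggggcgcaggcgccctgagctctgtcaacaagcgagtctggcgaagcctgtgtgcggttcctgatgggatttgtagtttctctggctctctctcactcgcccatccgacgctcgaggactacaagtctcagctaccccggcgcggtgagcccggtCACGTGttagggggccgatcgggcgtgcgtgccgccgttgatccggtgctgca
Mnt, chr11:74830674-74830973, plus strand: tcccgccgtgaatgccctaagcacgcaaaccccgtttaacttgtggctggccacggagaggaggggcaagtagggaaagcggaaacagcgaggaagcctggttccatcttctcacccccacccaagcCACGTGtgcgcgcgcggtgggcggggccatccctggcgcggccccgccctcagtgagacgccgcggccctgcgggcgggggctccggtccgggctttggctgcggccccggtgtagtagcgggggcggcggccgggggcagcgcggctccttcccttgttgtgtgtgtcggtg
Mxd4, chr5:34187661-34187960, minus strand: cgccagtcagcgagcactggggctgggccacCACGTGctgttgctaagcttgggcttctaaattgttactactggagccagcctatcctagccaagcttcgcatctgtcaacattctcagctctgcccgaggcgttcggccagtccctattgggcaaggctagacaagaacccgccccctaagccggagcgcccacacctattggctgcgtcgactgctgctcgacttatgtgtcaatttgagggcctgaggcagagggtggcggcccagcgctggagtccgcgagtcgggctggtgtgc
The motif begins at position -3 in Max, where it crosses the start, at -123 in Mnt and at -219 in Mxd4, each counted from the annotated start. The letters were searched as written, which covers both strands because CACGTG is its own reverse complement, and no other motif was searched. In all, 3 of the 6 members with an entry held it, while the windows of Mycn, Mxi1 and Mga did not. Myc has no entry. Of all 32851 windows 7.15% held the motif, as did 12.1% of the 8158 tested genes with an entry. A match describes the letters and is not evidence of binding in these cells.

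Among the 7 genes, which leave out Mxd1 and Mlxip given below, the activators dominated at the RNA level. Myc and Mycn together made up 82.8% and 84.0% of the summed FPKM of the 7 genes in replicates 1 and 2 labelled deficient, against 88.5%, 88.3% and 87.5% in control replicates 1, 2 and 3. Over the 5 libraries Myc lay between the 93.9th and 97.5th percentile of all genes in the table, and Mycn between the 89.6th and 96.0th. In each library Myc was above Mycn, although the ranges of their levels across libraries overlapped. Mycn was above each of the remaining 5 members in each library, with no overlap of ranges. Below it, Mxd4 and Max had similar means over the 5 libraries, at 17.7 and 16.1 FPKM, but differed within libraries. Mxd4 was above Max in 2 of the 5, control replicates 1 and 2, at 21.5 and 21.9 FPKM against 8.92 and 11.5 FPKM. Max was above Mga in each library, but the ranges of Max and Mga overlapped, and the next neighbours Mga and Mxi1, and Mxi1 and Mnt, changed order between libraries.

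Myc, the founding activator, was at 192 and 139 FPKM in replicates 1 and 2 labelled deficient, against 211, 314 and 135 FPKM in control replicates 1, 2 and 3. The groups overlapped: control replicate 3 was the lowest of the 5 libraries and control replicate 2 the highest. The log2 fold change, deficient-labelled minus control on the log2(FPKM + 1) scale, was -0.34 (SE 0.39, 95% confidence interval -1.25 to 0.56, limma adjusted p = 0.825). Such fold changes understate the change of genes with low values.

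Mycn, the paralogue that overlaps with Myc in HSC maintenance, was at 115 and 98.9 FPKM in replicates 1 and 2 labelled deficient, against 198, 86.8 and 116 FPKM in control replicates 1, 2 and 3. Both deficient-labelled values lay inside the control range, which control replicate 1 set at the top (log2 fold change -0.24, SE 0.38, 95% confidence interval -1.12 to 0.64, limma adjusted p = 0.893). Without control replicate 1 the log2 fold change was 0.085, the opposite sign. The controls thus differed from one another in the makeup of their activators as well as in the amount. The ratio of Myc to Mycn was 1.67 and 1.41 in libraries labelled deficient, against 1.07, 3.62 and 1.16 in control replicates 1, 2 and 3. The sum of both activators was 306 and 238 FPKM in libraries labelled deficient, against 409, 401 and 251 FPKM in the controls, so that control replicate 3 lay between the deficient-labelled libraries.

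**Figure D1:**
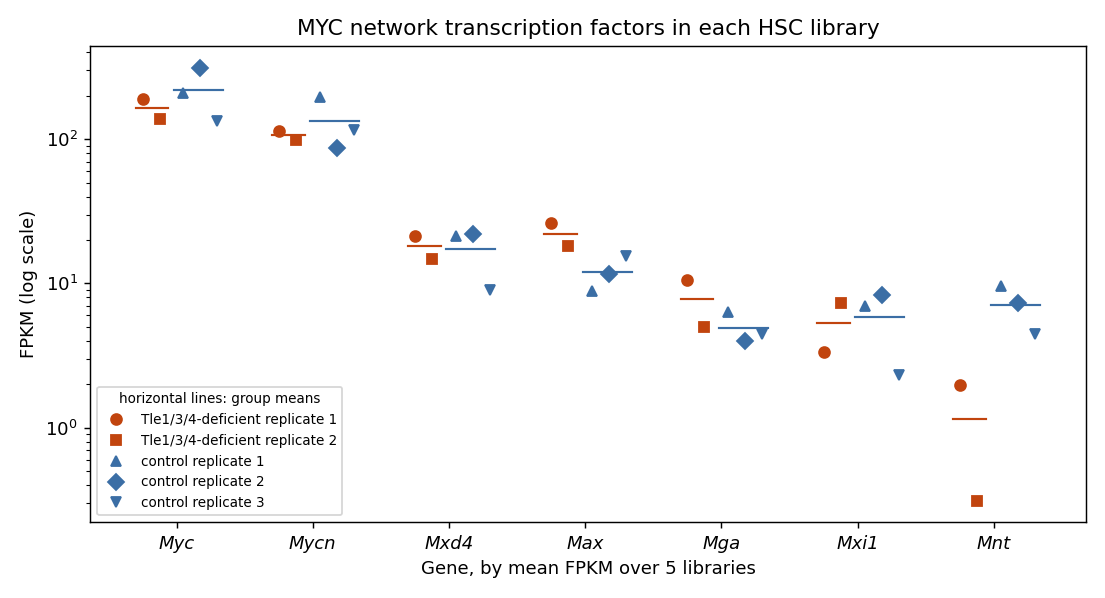
FPKM of the 7 network genes (log axis) in each library, with deficient-labelled libraries in orange and controls in blue and horizontal lines at group means. Myc and Mycn sit at 86.8 FPKM or above, the other genes at 26.2 FPKM or below, and the orange and blue points separate for Max and Mnt alone.

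Max encodes a partner shared by the activators and the repressors. Its level was 26.2 and 18.1 FPKM in replicates 1 and 2 labelled deficient. Control replicates 1, 2 and 3 were at 8.92, 11.5 and 15.6 FPKM. Both deficient-labelled libraries were above every control, with replicate 2 close to control replicate 3. The group means were 22.2 ± 5.70 FPKM in libraries labelled deficient and 12.01 ± 3.35 FPKM in controls (SD, n = 2 and 3), a ratio of 1.85. The log2 fold change was 0.84 (SE 0.49, 95% confidence interval -0.31 to 1.997) and missed the threshold over all genes (limma adjusted p = 0.672). Leaving out each library in turn gave log2 fold changes of 0.59 to 1.10, the lowest without deficient-labelled replicate 1.

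Mnt, the broadly expressed repressor that competes with MYC for MAX, was at 1.98 and 0.312 FPKM in replicates 1 and 2 labelled deficient, against 9.57, 7.27 and 4.45 FPKM in control replicates 1, 2 and 3. Every deficient-labelled value lay below every control, and the lowest control was again replicate 3. Group means were 1.15 ± 1.18 FPKM in libraries labelled deficient and 7.10 ± 2.57 FPKM in controls (SD, n = 2 and 3), a ratio of 0.161. Mnt had the widest difference of the 7 genes, with a log2 fold change of -1.98 (SE 0.78, 95% confidence interval -3.79 to -0.17). Its unadjusted p was 0.0358 and it missed the threshold over all genes (limma adjusted p = 0.548). The unadjusted p reads against a background of 8.45% of tested genes under 0.05. Without deficient-labelled replicate 2, where Mnt was lowest, the log2 fold change was -1.39, and without replicate 1 it was -2.57. Those runs keep only 1 deficient-labelled library, which is assumed to vary like the controls. How many fragments lie behind such low levels is unknown, so no counting error can be given.

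Max and Mnt lay on opposite sides of the controls, so the separation of the groups in their ratio follows from the choice of these genes and adds no support. Mnt over Max was 0.0755 and 0.0172 in replicates 1 and 2 labelled deficient, against 1.07, 0.630 and 0.286 in control replicates 1, 2 and 3. Myc plus Mycn over Max was at 11.7 and 13.1 in libraries labelled deficient, against 45.8, 34.7 and 16.1 in the controls. The sum of Myc and Mycn overlapped between the groups, so the separation in this ratio draws on Max and adds no support either. The summed repressors Mxi1, Mxd4 and Mnt over Max overlapped between the groups, at 1.02 and 1.23 in libraries labelled deficient, against 4.27, 3.25 and 1.01 in the controls. That sum omits the MXD repressor Mxd1, described below. Mxd1 alone, with 87.4 FPKM, exceeded the 22.3 FPKM of the summed repressors in replicate 2 labelled deficient. It lay below their sum in every other library. The third ratio therefore does not describe the whole repressor set, least of all in that replicate. Control replicate 3 was the nearest control to the deficient-labelled libraries in the first 2 of these ratios, and lay below both in the third. These ratios are of RNA levels, were formed after the values were seen and carry no test.

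**Figure D2:**
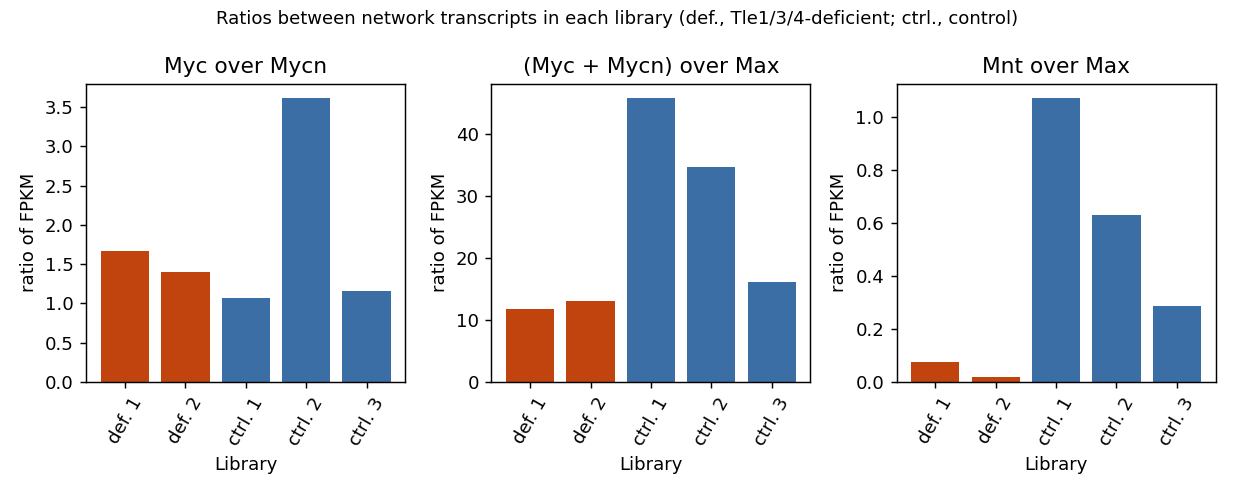
Ratios of FPKM between network genes in each library, with deficient-labelled libraries (def.) left of controls (ctrl.). Mnt over Max and Myc plus Mycn over Max are lower in both deficient-labelled libraries than in any control. Both ratios divide by Max, itself above every control in those libraries. Myc over Mycn overlaps between the groups and is highest, at 3.62, in control replicate 2.

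Mxd4, a repressor of the MXD family linked to quiescence and differentiation, was at 21.5 and 14.8 FPKM in replicates 1 and 2 labelled deficient, against 21.5, 21.9 and 8.95 FPKM in control replicates 1, 2 and 3. The groups overlapped, and the sole low value was control replicate 3 (log2 fold change 0.13, SE 0.55, 95% confidence interval -1.16 to 1.41, limma adjusted p = 0.962). Mxi1, another MXD repressor, was at 3.34 and 7.26 FPKM in replicates 1 and 2 labelled deficient, against 7.01, 8.27 and 2.33 FPKM in control replicates 1, 2 and 3. Here deficient-labelled replicate 1 and control replicate 3 were low and the other libraries stood close together (log2 fold change -0.07, SE 0.77, 95% confidence interval -1.87 to 1.73, limma adjusted p = 0.985). Both fold changes turn sign under some alternatives, given in the closing section, so neither gene has a direction here. The annotation of a later build places a gene on the opposite strand over exons of each, Gm10197 at Mxi1 and Gm42846 at Mxd4. Whether counting used strand is not given in the sources used here, so reads of these pairs may be mixed.

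Mga, a large protein that pairs with MAX and anchors the Polycomb complex PRC1.6, was at 10.6 and 4.95 FPKM in replicates 1 and 2 labelled deficient, against 6.37, 4.00 and 4.44 FPKM in control replicates 1, 2 and 3. Only deficient-labelled replicate 1 exceeded every control (log2 fold change 0.51, SE 0.68, 95% confidence interval -1.07 to 2.09, limma adjusted p = 0.859). Without that library the log2 fold change was 0.024.

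No member passed the threshold of 0.05 over all tested genes, where 2 of 10570 genes passed (0.0189%, limma with Benjamini-Hochberg adjustment). Of the 7 members, 1 had an unadjusted p under 0.05. The groups did not overlap in 2 of the 7 members, against 26.1% of all tested genes, a share close to the background. The confidence intervals of Myc and Mycn include log2 differences beyond the fitted ones in both directions, so the missed threshold does not show that either was equal between the groups. The median log2 fold change of the members was -0.068, against -0.10 over all tested genes, a median that moved to 0.012 when libraries were scaled by the median of ratios.

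**Figure D3:**
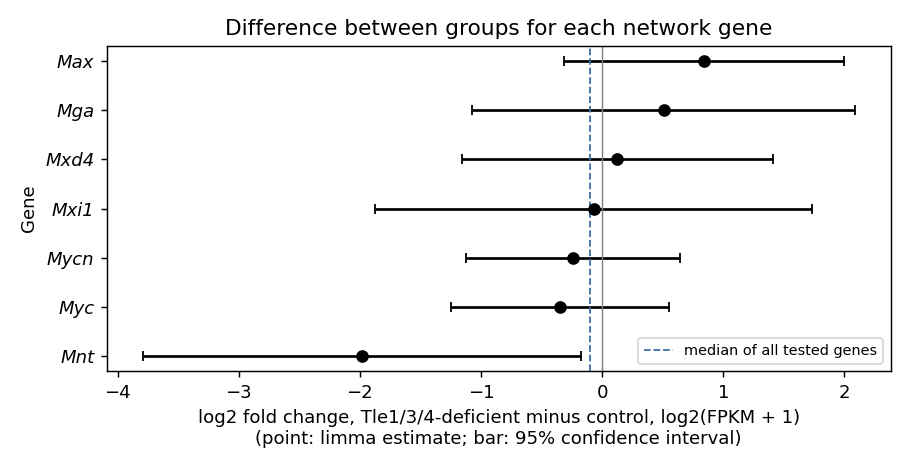
Log2 fold change of each network gene, deficient-labelled minus control on the log2(FPKM + 1) scale, with 95% confidence intervals from limma and the median of all tested genes as a dashed line at -0.10. The interval of Mnt alone stays below 0, from -3.79 to -0.17, before adjustment over all genes.

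Of the other genes of the extended network, Mxd1, Mlx and Mlxip were in the table and none passed the threshold. Mxd1, an MXD repressor induced in myeloid differentiation, was at 14.3 and 87.4 FPKM in replicates 1 and 2 labelled deficient, against 10.4, 10.7 and 14.0 FPKM in control replicates 1, 2 and 3 (log2 fold change 1.55, SE 0.73, limma adjusted p = 0.618). Replicate 1 was just above the highest control, and the difference lay almost wholly in replicate 2. Transcripts of granulocytes and monocytes were highest in that same library: the 12 such markers summed to 11244 and 67200 FPKM in replicates 1 and 2 labelled deficient, against 564 to 3046 FPKM in controls. All 12 had a positive fold change, where 44.3% of all tested genes did, and none was listed at 0 in any library. Without deficient-labelled replicate 2 it was 9 of 11, and the median log2 fold change was 3.06 against 4.55 with all libraries. With the replicate number as a block 7 of the 12 passed the threshold, against 0 without it. In that fit control replicate 3, which shares its number with no deficient-labelled library, does not enter the group difference. Primary granule genes differed among themselves, with Mpo at 1.15 and 958 FPKM and Ctsg at 0.294 and 305 FPKM in replicates 1 and 2 labelled deficient, against 6.25 to 41.7 and 0.0825 to 0.294 FPKM in controls. Prtn3, of the same granules, was at 449.96 and 468 FPKM against 280.5 to 411 FPKM. Erythroid markers, with 6 of 8 in the table, summed to 104 and 523 FPKM against 17.9 to 37.4 FPKM, with Alas2 listed at 0 in control replicate 1. The 8 megakaryocyte-platelet markers summed to 8207 and 3713 FPKM in replicates 1 and 2 labelled deficient, against 437 to 1116 FPKM in controls, with Selp listed at 0 in control replicate 2. The part of these transcripts in the values of Mxd1 or of the 7 members was not tested. In sorted bulk RNA, a different share of cells and a different amount of RNA per cell cannot be told apart.

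Mlxip, which encodes the nutrient-sensing partner of MLX, was at 45.3 and 45.0 FPKM in libraries labelled deficient, against 142, 50.7 and 56.8 FPKM in control replicates 1, 2 and 3. Its groups did not overlap, but control replicate 1 stood far above the other controls (log2 fold change -0.71, SE 0.47, limma adjusted p = 0.709). Mlx was at 28.6 FPKM and listed at 0 in replicates 1 and 2 labelled deficient, against 22.4, 19.8 and 27.0 FPKM in controls. A listed 0 can be a failed estimate in this table, which also lists the translation initiation factor Eif4a1 at 0 in control replicate 2 but at 533 to 699.7 FPKM elsewhere, so the value of Mlx is given by library alone.

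Co-repressor and co-activator partners were described from lists drawn up from general knowledge, and no gene of these lists passed the threshold. Of 16 tested SIN3 and NCOR subunits, through which MXD and MNT proteins repress, 7 had positive and 9 negative fold changes, with a median of -0.036. Over all tested genes 44.3% were positive. The balance turned on single libraries, with 4 positive, 12 negative and a median of -0.29 without deficient-labelled replicate 1, and 10 positive, 6 negative and a median of 0.27 without replicate 2. Without control replicate 1 the median was 0.042. Sin3a itself was listed at 0 in deficient-labelled replicate 2 and in control replicate 3, with 14.3 to 16.2 FPKM elsewhere. Here 1 subunit lay above every control and 4 below, against 10.2% and 15.9% of all tested genes. The sole subunit above was Sin3b, a SIN3 scaffold, at 104 and 129 FPKM against 59.6, 79.8 and 96.1 FPKM in controls (log2 fold change 0.58, SE 0.31, limma adjusted p = 0.659). Hdac2, a SIN3-associated deacetylase, was at 49.5 and 64.7 FPKM in libraries labelled deficient, against 84.6, 95.6 and 111 FPKM in controls (log2 fold change -0.76, SE 0.30, limma adjusted p = 0.548). Its relative Hdac1 was at 146 and 119 FPKM against 147, 140 and 112 FPKM, with overlapping groups, and the histone chaperone Rbbp7 was at 127 and 206 FPKM against 275, 215 and 260 FPKM. The other subunits below every control were Suds3, at 7.28 and 4.83 FPKM against 15.2, 18.7 and 20.4 FPKM, and Sap130, at 18.8 and 20.0 FPKM against 25.7, 49.8 and 34.5 FPKM, both named after their values were seen.

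All 9 partners of MGA in PRC1.6 had fold changes above 0, their median being 0.40 on the log2 scale, where 44.3% of all tested genes were positive. None passed and none had groups that did not overlap. The values of Ring1 and Rybp include listed zeros, in control replicates 1 and 3 for Ring1 and in control replicate 2 for Rybp. Tfdp1, the E2F dimerisation partner, was at 181 and 122 FPKM in libraries labelled deficient, against 90.2, 135 and 117 FPKM in controls. Cbx3, a heterochromatin protein, was at 154 and 156 FPKM against 155, 124 and 158 FPKM. Yaf2, a subunit that binds the RING proteins, was at 40.4 and 22.9 FPKM against 27.8, 29.4 and 17.3 FPKM. Rnf2, a RING ubiquitin ligase, was at 23.2 and 23.5 FPKM against 25.8, 13.8 and 25.3 FPKM, and in each of these 4 genes the groups overlapped. Without deficient-labelled replicate 1, which was also highest in Mga, the list's median was 0.14 and 7 of 9 were positive. It was also 7 of 9 without control replicate 1 (median 0.30) and without control replicate 2 (median 0.46). Of 17 tested cofactors and turnover factors of MYC, 8 were positive and 9 negative, with a median of -0.096. Ruvbl1, an ATPase of MYC-recruited chromatin complexes, was at 188 and 117 FPKM in libraries labelled deficient, against 194, 189.5 and 152 FPKM in controls. Its partner Ruvbl2 was at 137 and 101 FPKM against 125, 148 and 123 FPKM, and both overlapped between the groups. Aurka, a kinase that stabilises MYCN, was at 51.7 and 68.0 FPKM against 10.2, 64.6 and 35.9 FPKM, and the acetyltransferase gene Kat2a was at 36.3 and 40.9 FPKM against 38.2, 51.7 and 63.2 FPKM. The groups overlapped for Aurka and also for Kat2a.

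**Figure D4:**
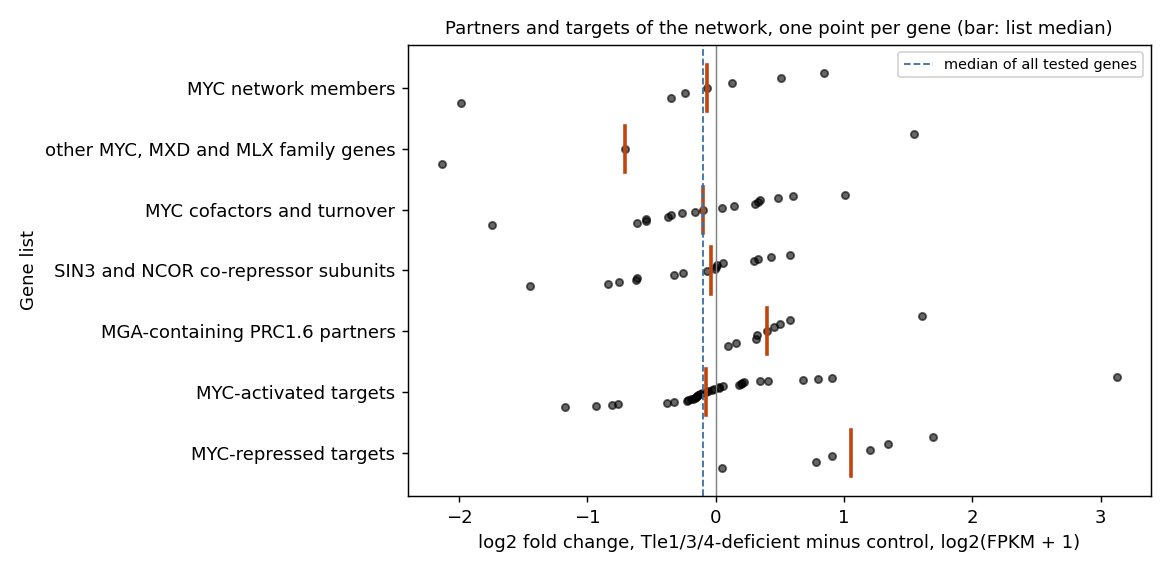
Log2 fold changes, deficient-labelled minus control, of each tested gene in the network and its partner and target lists (points), with list medians as orange bars and the median of all tested genes as a dashed line. Points of the PRC1.6 and MYC-repressed lists all lie above 0, with medians of 0.40 and 1.06, while the MYC-activated targets lie around a median of -0.074 with the far right point being Eif4a1, listed at 0 in control replicate 2.

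Genes that MYC activates stood on both sides. Of 33 tested targets, 13 were positive and 20 negative, or 39.4% positive against 44.3% of all tested genes. Their median was -0.074, and 2 lay above and 4 below every control, where 10.2% and 15.9% of all tested genes did so. After scaling by the median of ratios 18 were positive and 15 negative. Ldha, the lactate dehydrogenase of glycolytic cells, was at 1035 and 1073 FPKM in libraries labelled deficient, against 661, 685 and 629 FPKM in controls, with groups well apart (log2 fold change 0.68, SE 0.23, limma adjusted p = 0.505). Npm1, a nucleolar ribosome assembly factor, was at 766 and 543 FPKM against 623, 838 and 745 FPKM, and Cdk4, a cell cycle kinase, was at 431 and 248 FPKM against 393, 446 and 440 FPKM, both overlapping. Odc1, the polyamine synthesis enzyme and a classic direct MYC target, named after its values were seen, was at 44.5 and 30.7 FPKM in libraries labelled deficient, against 85.0, 75.8 and 56.4 FPKM in controls (log2 fold change -0.93, SE 0.34, limma adjusted p = 0.518). Ccnd2, a D-type cyclin named on the same basis, was at 81.0 and 67.2 FPKM against 492, 103 and 92.2 FPKM, so control replicate 1 stood far above all other libraries. Control replicate 1 was also the highest library for Mycn and Mlxip. The same held for Ncl, which encodes nucleolin and was named after its values were seen. Ncl was at 253 FPKM there, against 84.1 to 103 FPKM in the other 4 libraries. For Npm1 and Cdk4 that library was instead the lowest control, at 623 and 393 FPKM, so the targets did not share 1 pattern in it.

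Genes that MYC represses had positive fold changes in 6 of 6 tested cases, where 44.3% of all tested genes did. Their median was 1.06 on the log2 scale, and 2 of the 6 lay above every control, against 10.2% of all tested genes. None passed. The pair above every control comprised cyclin-dependent kinase inhibitors, named after their values were seen. Cdkn1a (p21) was at 6.37 and 12.2 FPKM in libraries labelled deficient, against 0.0382, 5.09 and 3.46 FPKM in controls (log2 fold change 1.70, SE 0.95, limma adjusted p = 0.663). Cdkn1b (p27) was at 8.98 and 4.23 FPKM against 2.22, 3.51 and 2.92 FPKM (log2 fold change 0.91, SE 0.72, limma adjusted p = 0.739). Ndrg1, a stress-response gene, was at 143 and 55.7 FPKM against 55.9, 48.9 and 20.3 FPKM, and Gadd45a, a growth arrest gene, was at 12.1 and 47.2 FPKM against 8.43, 13.2 and 6.28 FPKM. Cdkn2c, another cyclin-dependent kinase inhibitor gene, was at 32.3 and 19.4 FPKM against 14.5, 8.92 and 21.6 FPKM. Ndrg2, a relative of Ndrg1, was at 33.5 and 9.19 FPKM against 19.5, 23.0 and 11.03 FPKM (log2 fold change 0.053). These last 4 genes overlapped between the groups. Without deficient-labelled replicate 1 the median was 0.49 and 5 of 6 were positive. The granulocyte and megakaryocyte transcripts given above moved with the same groups, and their part in these values was not tested.

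Genes whose pattern over the 5 libraries was most like a member's were found by the root mean square difference of log2(FPKM + 1) after centring each gene on its own mean, among genes averaging 10 FPKM or more. Closest to Myc were Pura, at a difference of 0.057, and Wdr6, at 0.083, and closest to Mycn were Mrpl19, at 0.077, and Golt1b, at 0.083. These are small beside the SD of Myc and Mycn themselves over the libraries, 0.50 and 0.45 on the same scale. Closest to Max were A430005L14Rik and 4930579G24Rik, at 0.097 and 0.11. Mnt, the most variable member with an SD of 1.21, had Cbwd1 at 0.15 and Ddx31 at 0.22. Mxi1 lay nearest to Myh9 and Exo1, Mxd4 to Otud4 and Kpna1, and Mga to Sdf2l1 and Bcl2l1, at 0.052 to 0.14. With 6609 or 6610 candidate genes and 5 libraries, this likeness is a description with no test.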

How the data were processed

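RNA-seq of sorted mouse HSCs was deposited as FPKM per gene symbol, a unit taken from the name of the authors' table. Per the submitters' processing notes, the build was mm9 and the tools were TopHat and edgeR, with no version or role. No label or header used here names the annotation or filters. Groups and replicate numbers came from sample titles. The 10570 genes averaging 1 FPKM or more were compared in limma 3.58.1 (R 4.3.3) after log2(FPKM + 1), by two-sided moderated tests with a variance trend and no covariate beside group, with Benjamini-Hochberg adjustment over all of them and a threshold of 0.05. FPKM depends on the most abundant genes of a library. Depth is unknown in reads. The commonest ratios of values under 0.3 FPKM, resting on 8 to 36 genes, put the libraries at 1.11 to 1.46 times control replicate 1.

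The members and lists were chosen with earlier results of these data known. Named were all members, other MYC, MXD and MLX family genes, sort markers, genes past the threshold, the 4 most highly expressed genes of each list, the 2 genes most like each member, and others marked as named after their values were seen. Marker genes of other cell types and Tle1, Tle3 and Tle4 are named as checks. The lymphoid markers are not reported here. Exon overlaps were looked up by symbol in GENCODE M21. The test was also run on simulated data with normal noise, where only more highly expressed genes were changed. Its outcome is not reported here, and it does not speak to genes at low levels such as Mnt. Alternatives covered the pseudocount, filter, scaling, variance moderation, weights, the replicate number as a block and leaving out each library. Python 3.11.15, pandas 2.3.3 and matplotlib 3.10.9 were used.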

Additional observations from a re-analysis of the deposited data

How the results depend on the processing

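No member passed the threshold under any of the alternatives run (14 for Mnt, which a mean of at least 5 FPKM removes, and 15 for each other member). Their lowest adjusted p was 0.397, for Mnt without deficient-labelled replicate 1 (limma). Myc, Max, Mga and Mnt kept the sign of their log2 fold change throughout, at -0.65 to -0.047, 0.59 to 1.10, 0.024 to 0.99 and -2.89 to -1.10. Mycn turned to 0.085 without control replicate 1 and was as low as -0.50 without control replicate 2. Mxi1 turned to 0.040 with median-of-ratios scaling, 0.22 with quantile normalization, 0.22 with array weights, and up to 0.40 when 1 library was left out (from -0.53). Mxd4 turned to -0.27 with the replicate block and, equally, without control replicate 3. It lay between -0.27 and 0.38 when 1 library was left out. The cause was not tested.

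The count over all genes was small and moved with the setting. It was 2 as reported, 0 with log2(FPKM + 0.1), without a filter or with array weights, and 4 with log2(FPKM + 4) or median-of-ratios scaling. It was 1 with eBayes without trend, 5 with robust eBayes and 0 to 5 when 1 library was left out. With the replicate block it was 22, among them 7 of the 12 granulocyte-monocyte markers and no gene of the other lists described. Control replicate 3 shares its number with no deficient-labelled library, so in that fit it does not enter the group difference. The members' fold changes with the block were those found without control replicate 3, so these alternatives are not separate estimates. Replicate numbers are shared by 2 pairs, whose deviations from their group means correlated at 0.035 and 0.0069 across genes. The deviations of the 2 deficient-labelled libraries mirror each other by construction, so these values are not separate checks. The numbers are thus not shown to pair the samples. List medians were recomputed with other scalings and without each library, alternatives chosen after the data were seen. The MYC-repressed list ranged from 0.49 to 1.21, the PRC1.6 list from 0.14 to 0.68 and the MYC-activated list from -0.14 to 0.045. The SIN3 and NCOR list ranged from -0.29 to 0.27 and the cofactor list from -0.17 to 0.021. The other MYC, MXD and MLX genes ranged from -0.98 to 0.28, the latter without deficient-labelled replicate 2. Only 3 of those genes were tested, among them Mlx, listed at 0 in that library. Read depth is unknown, so counting error was not measured.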
